A study of Mus musculus with 9 samples.

Results

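Nnt, Wdfy1, Ide, Entpd4 and Cyfip2 are 5 genes whose expression or sequence is known to differ between substrains of the C57BL/6 mouse, and they were chosen by symbol for that reason. They are 5 of the 26602 genes with at least 1 count in the 9 midbrain libraries, and 4 of them were among the 18127 genes with enough counts to be tested. The libraries came from the midbrain, with the substantia nigra, of mice 3 to 4 months old: 4 from wild-type DJ-1+/+ mice and 5 from DJ-1-/- mice, which carry a targeted allele of the Parkinson's disease gene Park7 (DJ-1) on both chromosomes. The knock-out line had been backcrossed for 7 generations to C57BL/6 mice. Their substrain is not stated in the sources used here, and both genotypes were bred from heterozygous parents and kept in the same cages. RNA was read by 3′ mRNA sequencing, in which each molecule gives 1 fragment near its 3′ end, and molecular identifiers were used to count molecules. Values are given as counts, or as counts per 1000000 counts of the library (cpm). They were not divided by transcript length, and each value of a gene was compared with its own values in other libraries. In tissue RNA, fewer cells of a type and less RNA per cell cannot be told apart. No library of a named substrain was analysed here, so no level below can be assigned to a substrain.

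Inbred colonies that are kept apart collect their own mutations, and a knock-out line made in one colony and crossed into another can carry stretches of both. Nnt encodes the nicotinamide nucleotide transhydrogenase, an enzyme of the inner mitochondrial membrane that makes NADPH for the removal of peroxides; C57BL/6J mice carry a deletion of several exons in the middle of the gene, and the mouse reference genome is of that substrain. Wdfy1 encodes a FYVE and WD repeat protein of early endosomes that takes part in Toll-like receptor signalling. Ide encodes the insulin-degrading enzyme, a metalloprotease that also cleaves amyloid-β, Entpd4 encodes a nucleoside diphosphatase of the Golgi and lysosomal membranes, and Cyfip2 encodes a subunit of the WAVE regulatory complex, which controls actin branching at synapses.

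The 3′ end of a transcript decides what this assay can count, and the ends of Nnt and Entpd4 were not theirs alone in the GENCODE M21 annotation of GRCm38. Nnt (ENSMUSG00000025453, chr13:119335448-119408997, minus strand) is annotated beside a second protein-coding gene of the same name (ENSMUSG00000116207, chr13:119335528-119408952, same strand). Entpd4 (ENSMUSG00000095463, chr14:69337174-69367270, plus strand) has a copy, Entpd4b (ENSMUSG00000022066, chr14:69555424-69585520, plus strand), and their transcripts ENSMUST00000184973 and ENSMUST00000185072 were identical over all 3589 bases. The last 60 coding bases, with the stop codon in capitals, are shown for each pair because they show how little separates them.
Nnt (ENSMUST00000099149), chr13:119336257-119336316, minus strand: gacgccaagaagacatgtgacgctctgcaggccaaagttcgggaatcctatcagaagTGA
Second Nnt gene (ENSMUST00000223268), chr13:119336257-119336316, minus strand: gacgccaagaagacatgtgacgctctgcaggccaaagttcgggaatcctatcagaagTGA
Entpd4 (ENSMUST00000184973), chr14:69365680-69365739, plus strand: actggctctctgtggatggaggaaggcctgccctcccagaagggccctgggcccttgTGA
Entpd4b (ENSMUST00000185072), chr14:69583930-69583989, plus strand: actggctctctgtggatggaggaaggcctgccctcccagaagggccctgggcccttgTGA
The Nnt pair shares 1 stretch of genome, while the Entpd4 pair holds the same letters at 2 places. Over the whole coding sequence, of 2508 bases for the Nnt pair and 1842 bases for the Entpd4 pair, neither pair differed at any base. Of the last 500 exonic bases of the counted Nnt gene, 80 (16%) lay outside the exons of other protein-coding genes on the same strand. Over all its exons, 3698 of 7037 bases did. Its transcript ENSMUST00000109204 ends 18283 bases further upstream, in an exon that the second Nnt gene shares only in part. By the same measure, Wdfy1, Ide and Cyfip2 had all of their last 500 exonic bases to themselves, and no identical protein-coding transcript end elsewhere. Pseudogenes and genes on the opposite strand were not part of this measure.

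**Figure D1:**
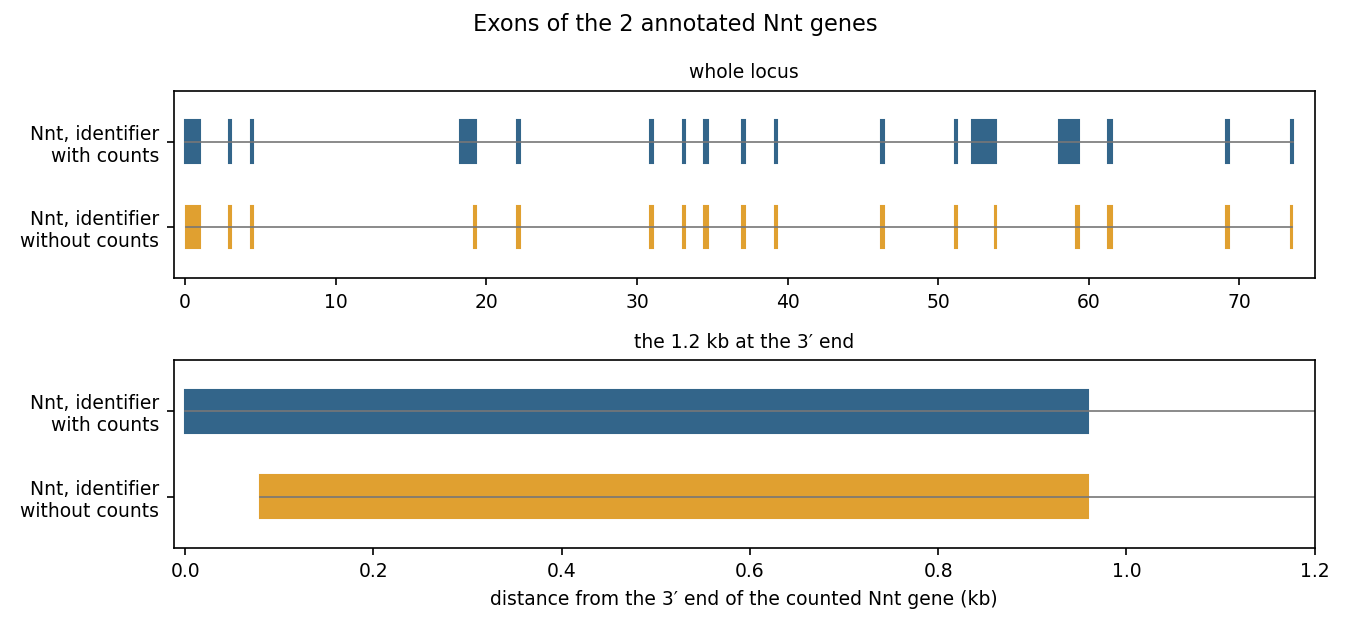
Exons of the 2 annotated Nnt genes, with distance from the 3′ end of the counted gene in kb, over the whole locus (upper) and over its last 1.2 kb (lower); boxes are exons. The gene without counts lies within the exons of the gene with counts, which runs 80 bases further at the 3′ end.

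Nnt was counted between 2 and 10 times per library, at the edge of what this depth can show. The counts were 2, 10, 4 and 3 in DJ-1+/+ replicates 1 to 4, and 3, 7, 9, 7 and 7 in DJ-1-/- replicates 1 to 5. The highest and the lowest count were both from DJ-1+/+ mice, and the groups overlapped. A count of 2 has an exact 95% Poisson interval of 0.242 to 7.22 and a count of 10 one of 4.80 to 18.4, which overlap; such intervals cover counting error only. Its level (mean ± SD) was 5.44 ± 4.06 cpm over the 4 wild-type and 6.54 ± 2.27 cpm over the 5 knock-out libraries. The log2 fold change of DJ-1-/- against DJ-1+/+ was 0.25 (SE 0.48, 95% interval -0.77 to 1.27), with p = 0.607 in edgeR's quasi-likelihood test and p = 0.635 in a two-sided exact permutation test over libraries. The interval runs from 0.587-fold to 2.42-fold, so differences within that range remain possible. Without DJ-1+/+ replicate 2, which held the count of 10, the log2 fold change was 0.88 and still missed the threshold. The second Nnt gene was absent from all 9 files, and whether it was part of the annotation used for counting is not given in the sources used here. A tag at the 3′ end lies outside the part deleted in C57BL/6J, so these counts do not read the deletion itself. With 2 to 10 counts per library and no library of a named substrain, their level does not assign an allele either.

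Entpd4 was nearer still to zero. Its counts were 0, 1, 2 and 1 in DJ-1+/+ and 1, 1, 0, 2 and 0 in DJ-1-/- replicates, 8 in all, and it was left out of the test across genes. A count of 3, taken as the floor, was worth 2.73 to 3.56 cpm, and every library was below it. The exact permutation test of its cpm gave p = 0.460. Entpd4b had counts of 2, 2, 0 and 0 in DJ-1+/+ and 0, 3, 4, 2 and 0 in DJ-1-/- replicates. Summed, the pair had 21 counts in all, or 2.31 ± 0.933 cpm in the wild-type and 2.58 ± 1.94 cpm in the knock-out group (p = 0.794 by the exact permutation test). No fold is given for Entpd4, Entpd4b or their sum, since both group means were under the floor.

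Counts of 0 were common among genes built in these ways, where a gene absent from a file is taken as 0, also if the annotation used for counting lacked it. Of 385 protein-coding genes with at most 20% of their last 500 exonic bases to themselves, 68.3% had 0 counts in all 9 libraries. Of 669 protein-coding genes whose last 200 transcript bases are identical in another gene, 83.6% had none. Of 20870 genes with at least 80% of the end to themselves and no identical end, 18.7% had none, and their median total was 171 counts. At least 10 counts in all were held by 15.8% of genes with mostly shared ends, Nnt with 52 among them. The share was 6.73% for identical ends and 69.5% for ends of their own. Entpd4, with an identical end, had 8 counts. The classes were not matched for which genes are expressed in the midbrain. The part of shared ends in the low counts of Nnt and Entpd4 was not tested, and neither was whether these counts follow the amount of transcript.

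**Figure D2:**
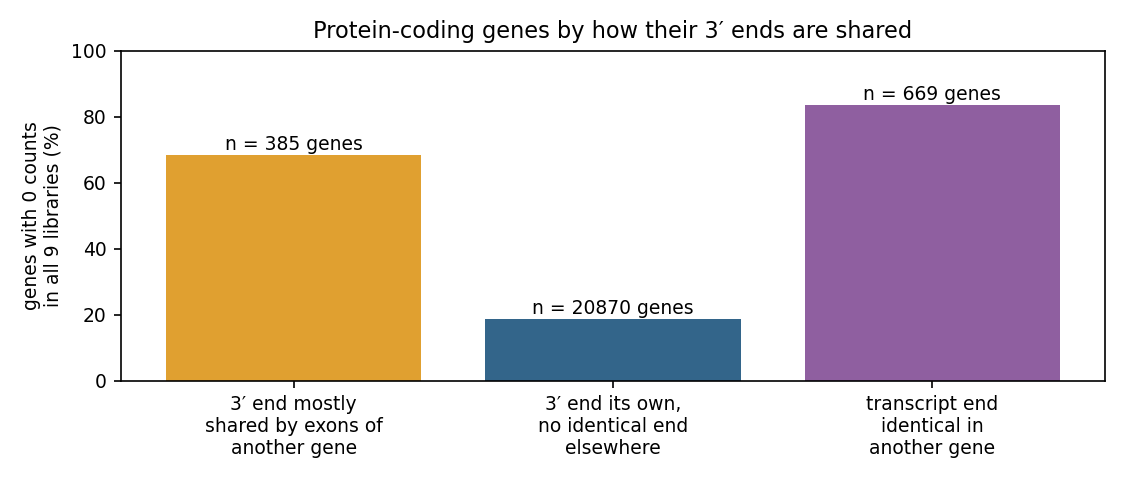
Share of protein-coding genes with 0 counts in all 9 libraries (bars, %), by how the annotated 3′ end is shared. The bars stand at 68.3% for ends mostly covered by exons of another gene, 18.7% for ends of their own and 83.6% for ends identical in another gene.

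Wdfy1 and Cyfip2 were well counted and differed between genotypes by less than the spread between libraries. Wdfy1 (ENSMUSG00000073643, chr1:79702262-79776143, minus strand) had counts of 108, 107, 132 and 113 in DJ-1+/+ and 142, 137, 106, 139 and 149 in DJ-1-/- replicates. The DJ-1-/- libraries were the deeper ones, and per 1000000 counts the levels were 133 ± 14.2 cpm and 133 ± 15.6 cpm. The highest value was DJ-1+/+ replicate 3 and the lowest DJ-1-/- replicate 3, so the groups overlapped over most of their range. The log2 fold change was 0.00 (SE 0.10, 95% interval -0.21 to 0.22), or 0.865-fold to 1.16-fold. The p was 0.970 in edgeR's test and 0.952 in the exact permutation test.

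Cyfip2 (ENSMUSG00000020340, chr11:46193850-46312859, minus strand) had counts of 181, 188, 193 and 194 in DJ-1+/+ and 190, 229, 216, 227 and 221 in DJ-1-/- replicates. These came to 218 ± 4.89 cpm in wild-type and 214 ± 16.6 cpm in knock-out libraries. The 4 DJ-1+/+ libraries lay within the range of the 5 DJ-1-/- libraries. The log2 fold change was -0.03 (SE 0.07, 95% interval -0.18 to 0.12), or 0.886-fold to 1.09-fold. The p was 0.718 in edgeR's test and 0.698 in the exact permutation test. It was the tightest interval of the 4 genes tested. Cyfip2 overlaps the pseudogene Gm12568 on the same strand and Fndc9 on the opposite strand. Ide overlaps the pseudogene Rpl10-ps6 on the same strand, and Wdfy1 overlaps Mrpl44 on the opposite strand. Whether the counting used strand is not given in the sources used here.

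Ide (ENSMUSG00000056999, chr19:37268743-37337852, minus strand) was the member with the lowest p, and it too missed the threshold. Its counts were 55, 52, 61 and 44 in DJ-1+/+ and 84, 90, 62, 57 and 68 in DJ-1-/- replicates. DJ-1-/- replicates 1 and 2 were above every DJ-1+/+ library in cpm, and the other 3 were within the DJ-1+/+ range. The means were 61.3 ± 9.13 cpm in wild-type and 71.0 ± 11.3 cpm in knock-out libraries. The log2 fold change was 0.22 (SE 0.14, 95% interval -0.08 to 0.52), or 0.943-fold to 1.43-fold, with p = 0.145 in edgeR's test and p = 0.222 in the exact permutation test. Fgfbp3, a carrier of fibroblast growth factors that lies on the same chromosome and is duplicated together with Ide in some C57BL/6J stocks, had 16.4 ± 1.25 cpm in wild-type and 14.9 ± 3.54 cpm in knock-out libraries, with a log2 fold change of -0.13 (SE 0.25).

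**Figure D3:**
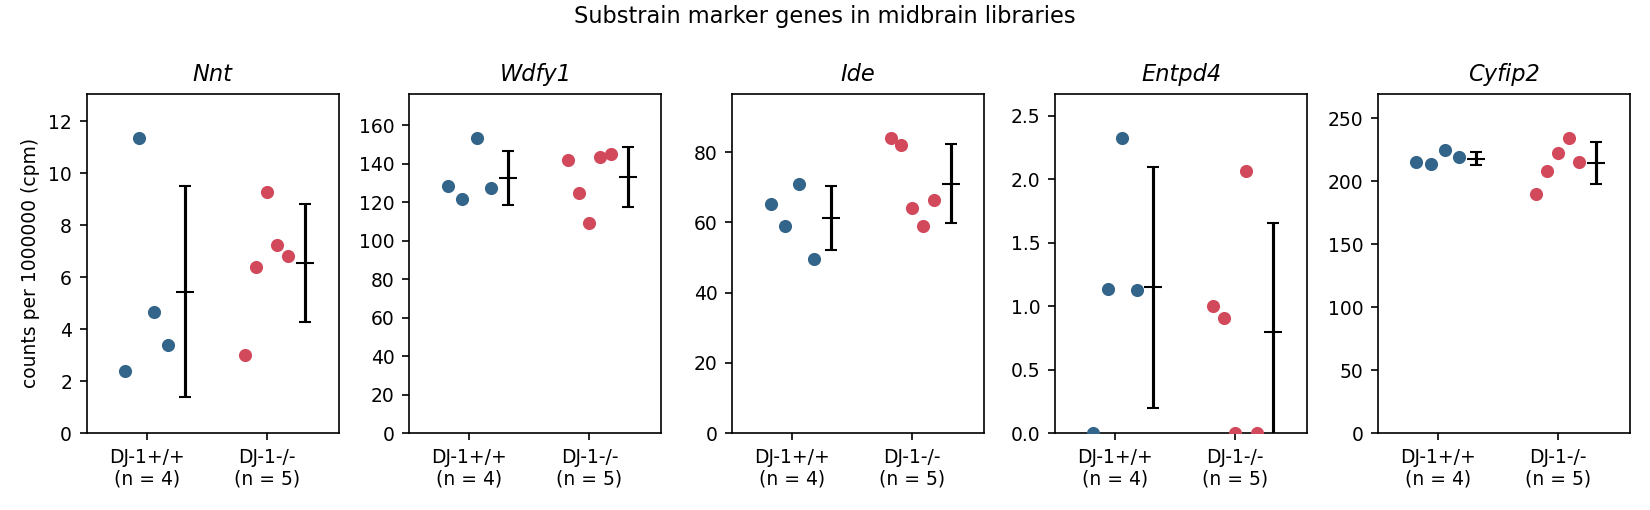
Level of each gene (cpm, linear axes from 0, a scale of its own per gene) in 4 DJ-1+/+ (blue) and 5 DJ-1-/- (red) libraries; points are libraries in replicate order, and the black bar is the mean ± SD. The groups overlap for all 5 genes.

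None of the 4 tested genes passed an unadjusted p of 0.05, against 2.83% of all genes tested (513 of 18127). With Benjamini-Hochberg adjustment over all genes in edgeR's test, 1 gene (0.00552%) passed, Park7 itself, and the adjusted p of each of the 4 genes was 0.999971. In 1.25% of all genes tested the cpm of the genotypes did not overlap, and none of the 5 genes was among these. A p above the threshold does not show that the genotypes are alike, and the intervals above give the differences that remain possible. Within genotypes, the chi-square of the counts per degree of freedom, which is 1 for counting error alone, was 1.57 for Nnt, 1.597 for Wdfy1, 1.54 for Ide, 0.806 for Entpd4 and 0.766 for Cyfip2, beside a median of 1.12 over all genes tested.

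Park7 checked the labels: it had 105 to 132 counts in the DJ-1+/+ and 14 to 29 in the DJ-1-/- libraries (log2 fold change -2.71, SE 0.15, edgeR adjusted p = 7.39e-08). Library totals were 841974 to 886085 counts in DJ-1+/+ and 967751 to 1098125 in DJ-1-/- libraries. Xist, expressed from the inactive X of females, had 0 to 2 counts in 3 libraries (wild-type replicates 1 and 4, knock-out replicate 5), where the Y-linked gene Ddx3y had 113 to 152 counts, and 146 to 193 counts in the other 6 libraries. By these genes 2 of 4 DJ-1+/+ and 1 of 5 DJ-1-/- libraries were male. Summed markers of the cerebellum stood at 1048 cpm in DJ-1+/+ replicate 1 against 204 to 368 cpm in the other libraries, and those of the choroid plexus at 893 cpm in DJ-1+/+ replicate 4 against 156 to 398 cpm. Of 10 dopaminergic markers, all detected, 5 were higher in DJ-1-/- mice at an unadjusted p under 0.05, against 2.83% of all genes tested. At that threshold 6 of 10 choroid plexus, 5 of 8 cerebellar and 1 of 5 blood markers were lower. Of 6 neuron, 6 oligodendrocyte and 6 microglia markers, 0 were called, and no marker passed after adjustment. Whether dissection or genotype lies behind these differences was not tested. In the 2 DJ-1+/+ and 4 DJ-1-/- libraries with Xist, the log2 fold changes were -0.31 for Nnt, -0.08 for Wdfy1 and 0.15 for Ide, none with p under 0.05 in edgeR's test. With the log2 cpm of Xist as a covariate in all 9 libraries, they were 0.08 (SE 0.48) for Nnt, 0.01 (SE 0.11) for Wdfy1, 0.18 (SE 0.15) for Ide and -0.02 (SE 0.08) for Cyfip2. Without DJ-1+/+ replicates 1 and 4, which held the high cerebellar and choroid plexus markers, they were -0.29 (SE 0.52), -0.04 (SE 0.13), 0.13 (SE 0.17) and -0.03 (SE 0.10) in the same order, and none of the 4 genes was called in either fit. Replicates 1 and 4 were also the male DJ-1+/+ libraries. The fit without them and the fit of libraries with Xist therefore hold the same 2 DJ-1+/+ libraries and are not separate checks. Sex and dissection cannot be told apart there.

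Other genes known to differ between C57BL/6 substrains were read in the same libraries. Mmrn1, a platelet and endothelial protein, had 5 counts in all and was not tested. Gabra2, a GABA-A receptor subunit whose brain level is lowered by an intronic deletion in C57BL/6J, had 163 ± 8.58 cpm in wild-type and 167 ± 13.0 cpm in knock-out libraries, with a log2 fold change of 0.04 (SE 0.07). Dock2, a guanine nucleotide exchange factor of leukocytes that carries a duplication in some C57BL/6 stocks, had a log2 fold change of 0.30 (SE 0.28). Crb1, the retinal polarity gene mutated in C57BL/6N, had 1 to 7 counts per library and a log2 fold change of 0.82 (SE 0.58). Its wild-type mean of 2.30 cpm was under the floor. Nlrp12, an innate immune receptor, had 2 counts in all. Of the 4 that were tested (Gabra2, Dock2, Crb1 and Fgfbp3, given with Ide above), none passed an unadjusted p of 0.05, against 2.83% of all genes tested.

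**Figure D4:**
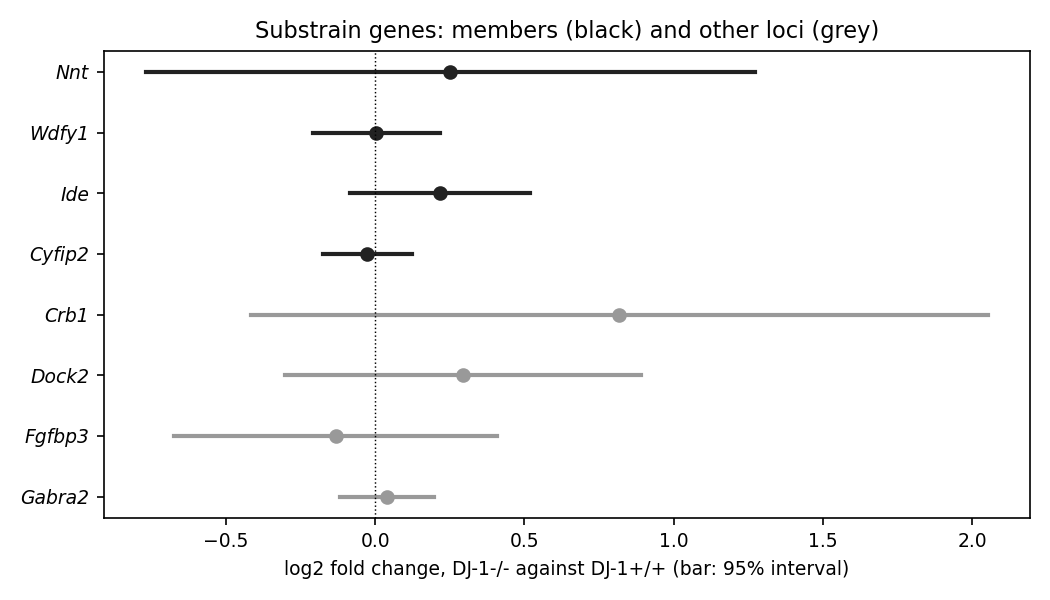
Log2 fold change of DJ-1-/- against DJ-1+/+ mice (points) with its 95% interval from edgeR's fit (bars), for the 4 tested members (black) and 4 other substrain genes (grey). Every interval includes 0, and those of Nnt and Crb1, the genes with the fewest counts, are the widest.

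Substrain differences are inherited with the chromosome around them, and the tested genes that start within 1 Mb of the 5 genes were therefore examined. Of 67 tested neighbours, 1 passed an unadjusted p of 0.05 and none after adjustment, against the 2.83% of all genes. It was Gm38062, an unclassified transcript that starts 955 kb from Wdfy1, with 11.3 ± 2.66 cpm in wild-type and 17.3 ± 3.71 cpm in knock-out libraries and a log2 fold change of 0.61 (SE 0.28). With DESeq2 or a likelihood ratio test 0 neighbours passed. The median log2 fold change was 0.02 over 9 neighbours of Nnt, -0.02 over 11 of Wdfy1, -0.02 over 18 of Ide, -0.0048 over 17 of Entpd4 and 0.04 over 12 of Cyfip2, beside 0.01 over all genes tested. Paip1, which regulates translation at the poly(A) tail and is the nearest tested gene to Nnt, had 136 ± 7.37 cpm in wild-type and 138 ± 11.7 cpm in knock-out libraries. Kif11, a mitotic kinesin beside Ide, had 3.44 ± 1.602 cpm in wild-type and 1.54 ± 1.18 cpm in knock-out libraries, from 1 to 4 counts per library, which is too near the floor for a fold. On the other side of Ide, the translational regulator Cpeb3 had a log2 fold change of -0.02 (SE 0.08). The growth factor gene Fgf10, the nearest tested gene on the far side of Nnt, had one of 0.32 (SE 0.28). Beside Wdfy1, the ribosomal gene Mrpl44 had 0.06 (SE 0.15) and the protease inhibitor gene Serpine2 0.01 (SE 0.09). Beside Cyfip2, the pseudogene Gm12568 had 1 to 6 counts per library, with both group means under the floor. On the far side of Entpd4 the nearest tested gene was its copy Entpd4b. Slc25a37, the mitochondrial iron carrier mitoferrin that lies nearest to Entpd4, had 52.1 ± 12.5 cpm in wild-type and 54.6 ± 5.45 cpm in knock-out libraries.

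**Figure D5:**
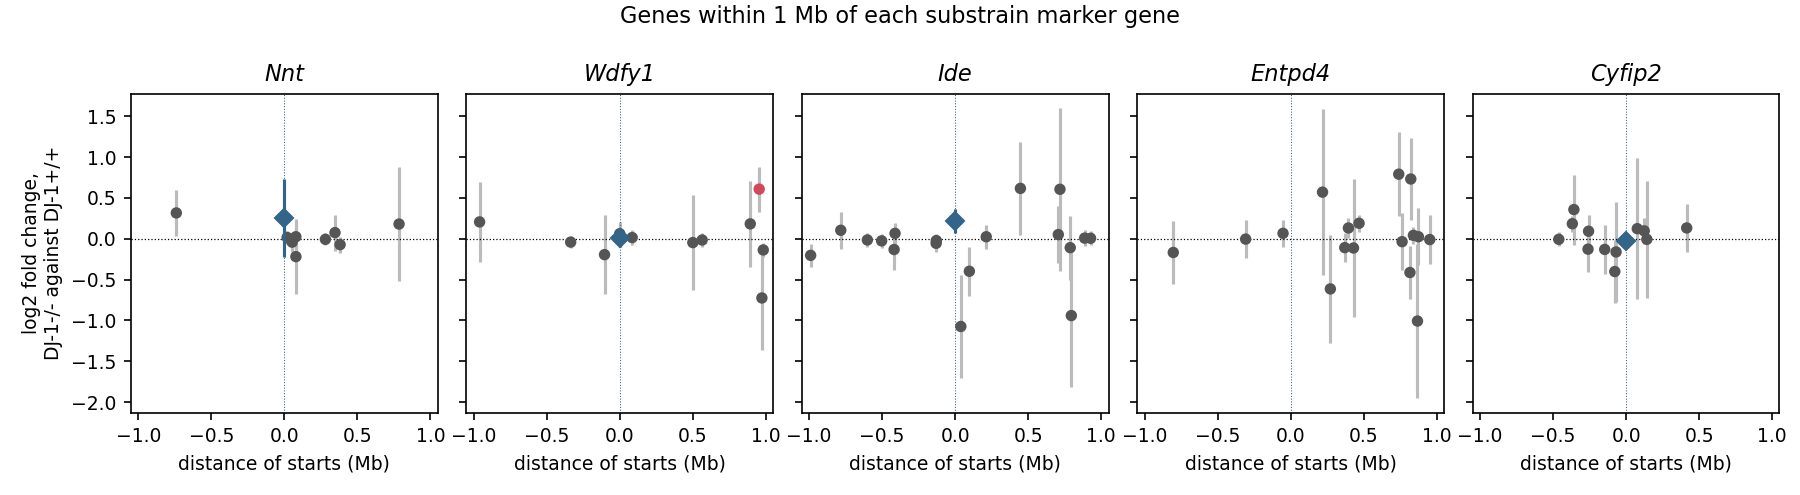
Log2 fold change of DJ-1-/- against DJ-1+/+ mice for tested genes within 1 Mb of each of the 5 genes, against the distance between gene starts in Mb; grey bars are standard errors, blue diamonds the 4 tested members, and red the gene with unadjusted p under 0.05. Of the 67 neighbours 1 is red, Gm38062 beside Wdfy1.

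Genes that share a role with the members were also not called, against 2.83% of all genes tested (513 of 18127). Lists this short can hold no call at that share. Of 16 genes for mitochondrial NADPH and peroxide removal, the pathway that Nnt feeds, 7 had a log2 fold change above and 9 below 0, with none at an unadjusted p under 0.05. They ranged from -0.34 (SE 0.32) for the glutathione reductase Gsr to 0.27 (SE 0.22) for the mitochondrial NAD kinase Nadk2. Among 6 relatives and partners of Wdfy1, none was called, from -0.05 for Wdfy3 to 0.43 (SE 0.54) for the receptor Tlr4. Tlr4 was near the floor, with means of 2.90 cpm in wild-type and 3.95 cpm in knock-out libraries. Of 8 genes around the peptide-degrading metalloproteases, none was called, from -0.08 for the endothelin-converting enzyme Ece1 to 0.29 for the neprilysin gene Mme. Of 8 tested genes of the nucleoside diphosphatase family, none was called, from -0.45 (SE 0.28) for Entpd2 to 0.32 (SE 0.29) for Entpd1, leaving out Entpd4b, which was under the floor in both groups. Of 10 genes of the WAVE complex and its partners, none was called, from -0.12 for Cyfip1, the paralog of Cyfip2, to 0.13 for the small subunit Brk1. The medians of these lists lay between -0.03 and 0.08, beside 0.01 over all genes tested.

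The genes whose pattern across the 9 libraries was most like each member, by Pearson's r of log2(cpm + 1) among tested genes of at least 20 cpm, were Gm45182, Gpbp1 and Thsd4 for Nnt (r = 0.95, 0.94 and 0.94), Hsd17b12, Trim2 and AC148174.2 for Wdfy1 (0.94, 0.93 and 0.92), Fam234a, Sdhc and Fam129b for Ide (0.97, 0.95 and 0.94), Flii, Brd9 and Sst for Entpd4 (0.93 each) and Usp50, Ccdc173 and Agpat4 for Cyfip2 (0.94, 0.93 and 0.89). Each is the top of 10927 or 10928 genes over 9 libraries that share depth and dissection, and for Nnt and Entpd4 it rests on single counts, so these are descriptions only.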

How the data were processed

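RNA from 4 DJ-1+/+ and 5 DJ-1-/- midbrains was sequenced by the authors with a 3′ mRNA kit with molecular identifiers. Per the labels, the submitters' processing notes name fastp 0.20.0, STAR 2.7.3a, featureCounts 2.0.0, UMI-tools 1.0.0 and GRCm38. The deposited values are whole-number counts of molecules per Ensembl gene, 1 file per mouse, and a gene not listed was taken as 0. The annotation release and the strand setting are not given in the sources used here. Of 26602 identifiers, 26570 matched GENCODE M21, from which names, positions and transcript sequences were taken. The other 32 did not, and 26 of these are numbered after its last identifier, as in a later release. Whether the release used held the second Nnt gene is not known. Nrdc was matched through its RefSeq synonym Nrd1. The genes and lists were chosen with earlier results of these data known.

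A gene needed 10 or more counts in total to be fitted, and fits were made on genotype alone in edgeR 4.0.16 (TMM, quasi-likelihood F test), with an unadjusted p under 0.05 as the call and Benjamini-Hochberg adjusted p-values beside it. Single genes were also compared by two-sided exact permutation tests of cpm, whose smallest possible p is 0.0159. Groups came from the labels, and each library from a different mouse. Alternatives were DESeq2 1.42.0, RLE size factors, a likelihood ratio test, other filters, the log2 cpm of Xist as a covariate, a replicate block and each library left out; the fits with only Xist-expressing libraries and without DJ-1+/+ replicates 1 and 4 were chosen after the data were seen. On simulated data for this comparison (18127 genes), 190 of 200 genes given a log2 change of 1.5 were recovered. Of 17609 unchanged genes tested there, 19 were wrongly picked out as changed, and 4.84% had an unadjusted p under 0.05. The median coverage of the simulated confidence intervals was 92.5%, below their nominal level. Recovery of changes smaller than 1.5 was not tested. The genes named are the members in every library, Park7, Xist and Y-linked genes, the other substrain genes, the extremes and called genes of each related list, the called and nearest neighbours within 1 Mb, and 3 genes of most similar pattern per member. Of the genes this rule names, 2 are not reported here. Depth was 841974 to 1098125 counts per library, so a count of 3, the floor used, is 2.73 to 3.56 cpm.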

Additional observations from a re-analysis of the deposited data

Results flagged for a closer look

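Of 26 groups of libraries examined for a single distant value, 1 was picked out, and about 1.3 would be at 1 in 20. Mmrn1 in DJ-1-/- replicate 1 was at 1.001 cpm, a single count, with 0 in the other 4 DJ-1-/- libraries. No value of Nnt, Wdfy1, Ide, Entpd4 or Cyfip2 stood apart in this way.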

How the results depend on the processing

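None of the tested members was called, before or after adjustment, under any of 20 alternatives. Ide stayed above 0 in all of them, from 0.13 to 0.29. Nnt ranged from 0.01 to 0.88 with 1 library left out, and turned to -0.31 in the libraries with Xist and to -0.29 without DJ-1+/+ replicates 1 and 4. Both of those fits hold the same DJ-1+/+ libraries. Wdfy1, at 0.00, changed sign with RLE size factors (-0.0069), DESeq2 (-0.0068), a filter of 1 cpm in 4 libraries (-0.0033), the replicate block (-0.0345), the libraries with Xist (-0.0832) and without DJ-1+/+ replicates 1 and 4 (-0.0447), and ranged from -0.0433 to 0.0783 with 1 library left out; Cyfip2 then ranged from -0.0720 to 0.0113. The cause was not tested. Of all genes, 513 were called; the number was 235 with DESeq2, 802 with no filter, and 338 to 732 with 1 library left out, 338 being without DJ-1-/- replicate 2. After adjustment 1 gene passed, against 2 with the likelihood ratio test, 36 with no filter, 8 with the replicate block, 3 in the libraries with Xist and 1 to 2 with 1 library left out. Of the neighbours 1 was called, against 0 with DESeq2, 0 with the likelihood ratio test, 0 in the libraries with Xist and 0 to 3 with 1 library left out: 0 without DJ-1+/+ replicate 1 or 2 or DJ-1-/- replicate 3 or 4, 3 without DJ-1+/+ replicate 3 and 2 without DJ-1+/+ replicate 4. Of the related lists 0 were called, against 1 in the libraries with Xist and 0 to 1 with 1 library left out. The labels do not state that replicate numbers pair the mice. The correlations of same-numbered deviations were 0.30, 0.05, -0.12 and -0.19. Only replicate 1 correlated best with its own number, and these values do not settle whether mice were paired. The block called none of the members. Counts of 10 or fewer per library limit Nnt and Entpd4, and the part of shared 3′ ends in these was not tested.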
